A study of Mus musculus with 2 samples.

Results

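Semaphorins, ephrins, Slits and netrins, with their receptors, were examined in a pair of 3T3-L1 samples, treated with Pink1 siRNA and with control siRNA. The 68 genes were the rows of the count tables whose symbols belong to the semaphorin, plexin, neuropilin, Eph, ephrin, Slit, Robo, netrin and Unc5 families, out of 23282 rows. 3T3-L1 cells are mouse fibroblast-like preadipocytes that form fat cells when differentiated, and the labels call these cells adipocytes. Pink1 is the kinase that flags depolarised mitochondria for mitophagy. Each group was 1 sample with 1 library, from a QuantSeq kit that reads tags near the 3′ ends of polyadenylated transcripts. The sources used here do not give the days of differentiation, the siRNA sequences or the time after transfection.

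Guidance cues are signals that tell a growing axon or a moving cell where to go. Semaphorins signal through plexins, and the secreted class 3 members first bind a neuropilin. Ephrins sit on the cell surface and signal both into the cell that carries an Eph receptor tyrosine kinase and back into their own cell. Slits repel cells through Robo receptors, while netrins attract through DCC or neogenin and repel through Unc5 receptors. Outside the nervous system the same families shape vessels and bone. In mice, Sema3a acting through Nrp1 restrains osteoclast formation, ephrin-B2 and EphB4 signal between osteoclasts and osteoblasts, and a cleaved fragment of Slit2 is released by fat.

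Of the 68 genes, 38 had at least 40 counts in both libraries together and are called measured below. Levels are CPM over the effective library size, a scaled count that allows the libraries to be compared, and 1 count was worth 0.0714 CPM. A 3′ tag is taken about once per transcript, so CPM was set side by side between genes without division by length. Replicates were lacking in both groups, so no difference could be tested. In such bulk samples, fewer cells of a type and less RNA per cell cannot be told apart. Each interval is a 95% exact interval that covers counting error only. A wider interval, which also allows for the spread between these libraries among all genes of a similar level, is called the widened interval. Pink1, the targeted gene, had 351 counts in the Pink1 siRNA library and 511 in the control library, or 25.1 against 36.5 CPM. The ratio was 0.687 (counting 0.598 to 0.788, widened 0.445 to 1.05), so the targeted gene was lower beyond counting error and its widened interval included 1.

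Upstream sequence is shown for Ntn3 and Epha1, the 2 guidance genes that passed the rule of size described below, and for Ntn5, which had 0 counts in both libraries and, tied with Robo4, the fewest CpG pairs among such genes. RefSeq promoters on GRCm38.p6 (mm10) were used, with 1 listed start for each of these genes, and the 250 bases before that start can reach into a longer transcript. Only the bases before the gene's RefSeq extent and before any GENCODE M21 exon are therefore printed, 5′ to 3′. These are 106 bases for Ntn3 (chr17:24209532-24209637, minus strand), 204 for Epha1 (chr6:42373315-42373518, minus strand) and 250 for Ntn5 (chr7:45683772-45684021, plus strand). Capitals mark the GC box GGGCGG or its complement CCGCCC.
Ntn3: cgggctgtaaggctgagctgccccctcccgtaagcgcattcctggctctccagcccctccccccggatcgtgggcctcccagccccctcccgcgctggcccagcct
Epha1: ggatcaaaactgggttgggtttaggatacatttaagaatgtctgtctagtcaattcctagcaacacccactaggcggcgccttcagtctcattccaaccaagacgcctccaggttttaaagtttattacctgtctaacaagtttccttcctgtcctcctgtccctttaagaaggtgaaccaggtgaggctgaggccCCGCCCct
Ntn5: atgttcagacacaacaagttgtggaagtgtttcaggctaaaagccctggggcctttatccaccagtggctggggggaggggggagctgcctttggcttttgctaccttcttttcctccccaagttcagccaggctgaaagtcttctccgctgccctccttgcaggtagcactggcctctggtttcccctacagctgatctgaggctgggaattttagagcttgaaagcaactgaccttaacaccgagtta
The printed stretch of Ntn3 held no GC box and 7 CpG pairs, that of Epha1 held 1 GC box and 4 CpG pairs, and that of Ntn5 held no GC box and 2 CpG pairs. None is printed for Nrp1 or Slit3, the genes whose widened interval lay on 1 side of 1. The 250 bases listed for Nrp1 lie inside its RefSeq gene, and all but 18 of those for Slit3 lie in a GENCODE exon. The whole window of Slit3 held 6 GC boxes and 35 CpG pairs, and its GC content was 78.8%, while that of Nrp1 held 1 GC box and 11 CpG pairs. Over their own whole windows of 250 bases, Ntn3 held 1 GC box and 11 CpG pairs, and Epha1 held 3 GC boxes and 9 CpG pairs. A match is a description of the letters and not a site of binding.

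The ratios of the guidance genes were split evenly around 1. Of the 38 measured genes, 19 had a ratio of Pink1 siRNA over control siRNA above 1 and 19 below it, against 51.1% above 1 among all 11660 measured rows. Their median log2 ratio was -0.0018 (interquartile range -0.20 to 0.36), beside 0.0047 (-0.21 to 0.21) over all measured rows. The rule of size asked for a level at least 2 times higher or lower and a counting interval on that side of 1. It took 1 gene in each direction, Ntn3 higher and Epha1 lower, or 2.63% of the measured genes each way. Of all measured rows, 1.69% were called higher and 2.39% lower, so both shares lie near the background.

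The genes were spread widely in level. The neuropilin Nrp1 had the highest level of the group in both libraries, followed by the plexin Plxnb2 and the ephrin Efna5. These 3 had at least 100 CPM in both libraries, 12 genes had at least 50 CPM and 27 had at least 10 CPM. The lowest measured gene was Efnb3, averaging 1.75 CPM.

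**Figure D1:**
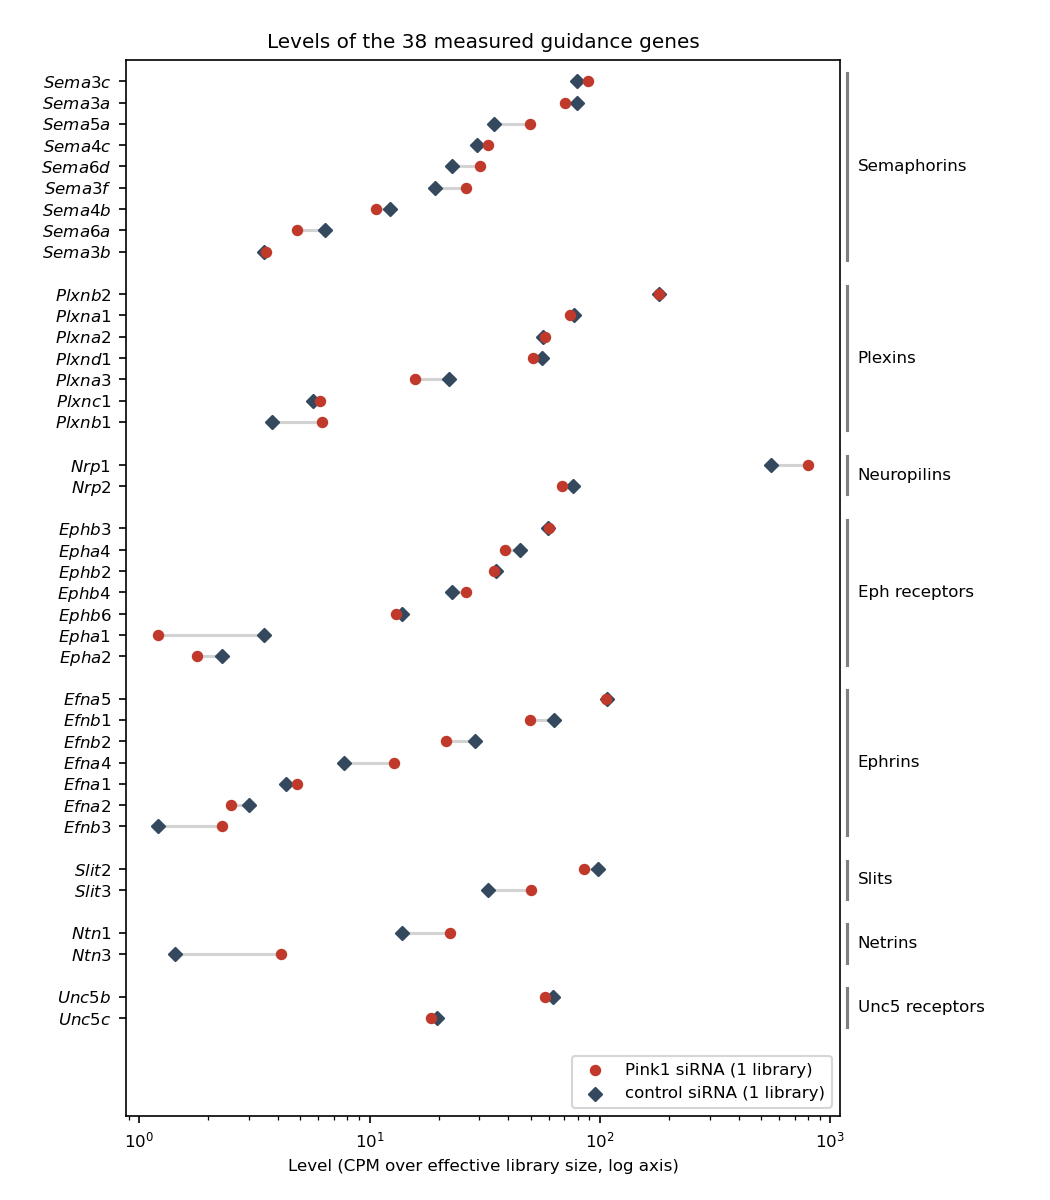
Level in CPM (log axis) of each of the 38 measured guidance genes, by family, in the Pink1 siRNA library (circles) and the control siRNA library (diamonds). Most pairs of points nearly coincide, and the widest gaps are those of Epha1 and Ntn3, which lie below 5 CPM.

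Nrp1, the co-receptor that binds class 3 semaphorins and vascular endothelial growth factor, had 11145 counts in the Pink1 siRNA library and 7706 in the control library. Its level was 796 against 550 CPM, a ratio of 1.45 (counting interval 1.40 to 1.49, widened 1.03 to 2.04). Its log2 ratio of 0.53 lay above the middle 90% of the 583 genes of similar level, which ran from -0.25 to 0.42. Its relative Nrp2, which prefers other class 3 semaphorins such as Sema3f, had 956 counts in the Pink1 siRNA library and 1075 in the control library. That is 68.3 against 76.7 CPM and a ratio of 0.889 (counting 0.814 to 0.971), and the widened interval included 1. The 2 neuropilins therefore had ratios on opposite sides of 1. Nrp2 overlaps the RefSeq gene 4930487H11Rik (41 and 47 counts) over 3815 bases.

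Nrp1 also set the summed level of the whole group. All 68 genes together had 30748 counts in the Pink1 siRNA library and 27327 in the control library. This is 2195 CPM (95% Poisson interval 2171 to 2220) against 1951 CPM (1928 to 1974), a ratio of 1.13 (1.11 to 1.14). Nrp1 alone made up 36.2% of the guidance counts in the Pink1 siRNA library and 28.2% in the control library. With Nrp1 left out, which was done after its values were seen, the sums were 1399.5 against 1400.7 CPM, a ratio of 0.999 (0.980 to 1.02).

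Semaphorins, the ligands of plexins and neuropilins, had reads from every class, mostly in the secreted class 3 genes. Of 20 genes, 9 were measured, none passed the rule of size, and the median log2 ratio was 0.16. The class 3 genes summed to 189 CPM in the Pink1 siRNA library and 183 CPM in the control library (ratio 1.04, 0.982 to 1.10). Within class 3, Sema3c had 1240 against 1111 counts, or 88.5 against 79.3 CPM. Sema3a, the classic repellent and the one that acts in bone, had 986 against 1116 counts, or 70.4 against 79.7 CPM. Sema3c was thus above Sema3a in the Pink1 siRNA library and level with it in the control library. Their counting intervals lay on opposite sides of 1 (1.03 to 1.21 and 0.810 to 0.963), and both widened intervals included 1.

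Sema3f, a ligand of Nrp2, had 367 counts in the Pink1 siRNA library and 270 in the control library, a ratio of 1.36 (1.16 to 1.60). Sema3b had 50 against 49 counts. The 2 genes lie 72.3 kb apart on chromosome 9, so neighbours stood here at different levels. Their widened intervals included 1.

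Among the membrane-bound semaphorins, Sema5a stood highest, with 695 counts in the Pink1 siRNA library and 488 in the control library. That is 49.6 against 34.8 CPM, a ratio of 1.42 (counting 1.27 to 1.60, widened 0.979 to 2.09). Its log2 ratio of 0.51 was above the middle 90% of the 583 genes of its level (-0.46 to 0.39). Sema6d, a ligand of plexin A1, had 422 against 318 counts (ratio 1.33, counting 1.14 to 1.54, widened 0.866 to 2.05). Sema4c, a ligand of plexin B2, had 457 against 409 counts (1.12, 0.976 to 1.28). Sema4b had 149 against 172 counts and Sema6a 68 against 90 counts, with counting intervals that included 1. The class 5 and class 6 sums were 1.42 (1.26 to 1.59) and 1.20 (1.05 to 1.36) times the control level, the class 4 sum 1.04 times (0.927 to 1.16).

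Plexins, the receptors that carry the semaphorin signal into the cell through their GTPase-activating domain, differed little. Of 9 genes, 7 were measured, none passed the rule of size, and the median log2 ratio was 0.0001. Plxnb2, a receptor of class 4 semaphorins, had 2528 counts in each library, at 180 CPM in both. Plxna1 had 1043 against 1081 counts, Plxna2 806 against 792, and Plxnd1, through which Sema3e acts on vessels, 717 against 781. These 4 abundant plexins all had counting intervals that included 1. Plxna3 was the exception among the measured A plexins, with 220 counts in the Pink1 siRNA library and 309 in the control library. Its ratio was 0.712 (counting 0.596 to 0.849, widened 0.429 to 1.17). Plxnb1, the receptor of Sema4d, had 87 against 53 counts (1.64, counting 1.15 to 2.36, widened 0.605 to 4.80). Plxnc1, the receptor of Sema7a, had 85 against 80 counts.

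Eph receptors were represented more by the B class than by the A class. EphB genes summed to 134 CPM in the Pink1 siRNA library and 131 CPM in the control library, with 4 of 5 measured. EphA genes summed to 41.7 against 51.0 CPM, with 3 of 9 measured and a ratio of 0.818 (0.732 to 0.914). Epha4, which binds both ephrin classes, supplied most of the EphA sum with 540 against 633 counts (0.853, counting 0.759 to 0.958, widened 0.585 to 1.24). Ephb3 had 845 against 832 counts and Ephb2 had 484 against 494. Ephb4, the receptor of ephrin-B2, had 367 against 320 counts (1.15, 0.985 to 1.34). Ephb6, whose kinase domain is inactive, had 182 against 194 counts. None of these 4 EphB genes had a counting interval that left out 1.

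Epha1 was the 1 guidance gene called lower, from few reads. It had 17 counts in the Pink1 siRNA library and 49 in the control library, or 1.21 against 3.50 CPM. The ratio was 0.347 (counting 0.187 to 0.613, widened 0.0602 to 1.41), a 2.88-fold lower level, and the widened interval includes 1. Epha1 overlaps Zyx, a gene on the other strand with 830 against 1009 counts, over 1727 bases. Strand use in the authors' counting is not known, so the Epha1 counts are uncertain. Epha2 had 25 against 32 counts with an interval that included 1 (0.444 to 1.36).

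The summed ratio of the ephrin-B genes lay below 1 beyond counting error, and the counting interval of the ephrin-A sum included 1. The ephrin-A genes, whose proteins are tethered by a lipid anchor, summed to 127 CPM in the Pink1 siRNA library and 123 CPM in the control library (ratio 1.03, 0.963 to 1.10). The ephrin-B genes, whose proteins span the membrane, summed to 73.4 against 93.2 CPM (0.787, 0.725 to 0.855). Efna5 was nearly equal, with 1495 against 1499 counts and 107 CPM in both. Efnb1 had 695 counts in the Pink1 siRNA library and 889 in the control library (ratio 0.782, counting 0.707 to 0.864, widened 0.534 to 1.14). Efnb2 had 301 against 400 counts (0.753, counting 0.646 to 0.876, widened 0.482 to 1.17). Both abundant ephrin-B genes were thus lower beyond counting error, and neither was lower beyond the widened interval. Efnb3, at the lowest level, had 32 against 17 counts (1.88, counting 1.01 to 3.61, widened 0.391 to 11.8), just short of the rule of size.

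Efna4 had 178 counts in the Pink1 siRNA library and 109 in the control library, or 12.7 against 7.78 CPM. The ratio was 1.63 (counting 1.28 to 2.09, widened 0.821 to 3.36), and its log2 ratio of 0.71 was just above the middle 90% of the 583 genes of its level (-0.81 to 0.69). Efna4 lies in a row with Efna3 and Efna1 on chromosome 3, with 10.5 kb and 32.9 kb between them. Efna1 had 68 against 61 counts, while Efna3 had 0 counts in the Pink1 siRNA library and 14 in the control library. With a count of 0 taken as 3 counts, Efna3 was 4.67-fold lower, and its counting interval ended at a ratio of 0.301. Its 14 counts were under the minimum of 40. Efna2 had 35 against 42 counts, with an interval that included 1.

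**Figure D2:**
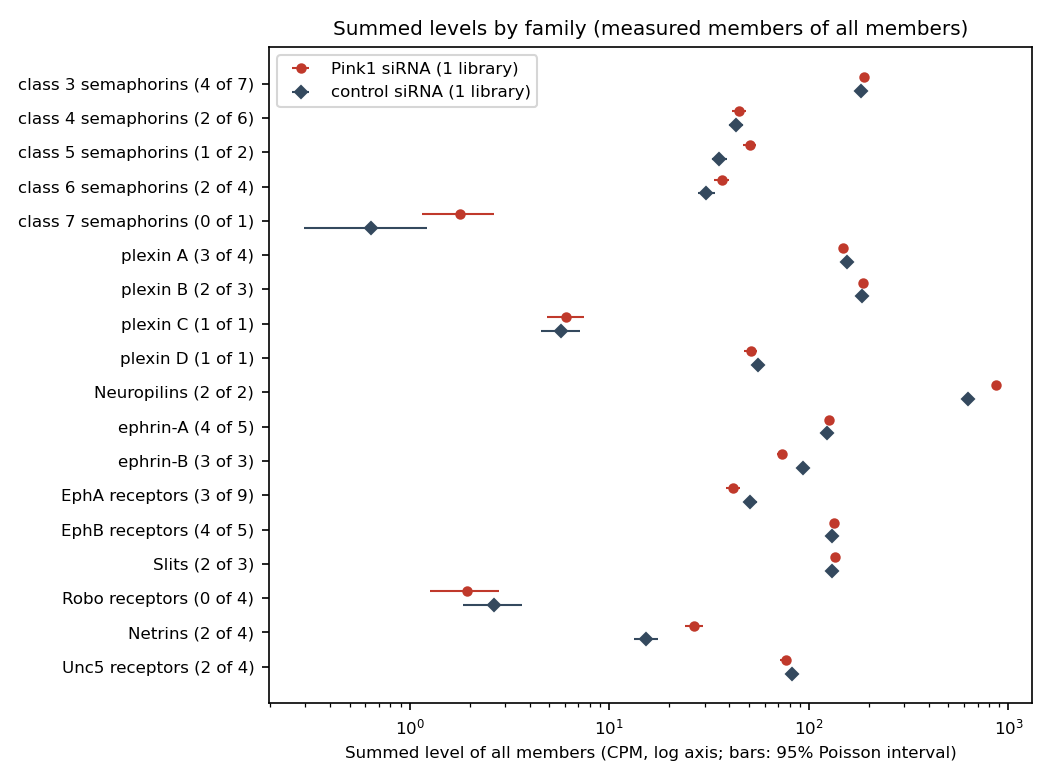
Summed level in CPM (log axis) of all genes in each family or class, in the Pink1 siRNA library (circles) and the control siRNA library (diamonds), with 95% Poisson intervals that cover counting error only. The neuropilins are highest at 864 against 627 CPM, and the Robo receptors are among the lowest at 1.93 against 2.64 CPM.

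Slit ligands were present without much of their Robo receptors. The Slits summed to 135 CPM in the Pink1 siRNA library and 131 CPM in the control library, and the 4 Robo genes summed to 1.93 CPM (95% Poisson interval 1.27 to 2.80) against 2.64 CPM (1.86 to 3.64). Slit3 had 702 counts in the Pink1 siRNA library and 459 in the control library, or 50.1 against 32.8 CPM. Its ratio was 1.53 (counting 1.36 to 1.72, widened 1.05 to 2.26), and its log2 ratio of 0.61 was above the middle 90% of the genes of its level (-0.46 to 0.39). Slit2 had 1192 against 1375 counts, or 85.1 against 98.2 CPM (0.867, counting 0.802 to 0.938, widened 0.638 to 1.18). The 2 Slits therefore lay on opposite sides of 1, and their sum had a ratio of 1.03 (0.968 to 1.10).

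No Robo gene was measured. Robo1, a widely expressed Slit receptor, had 7 counts in the Pink1 siRNA library and 30 in the control library, 3 short of the minimum in sum. Its ratio was 0.233 (0.0865 to 0.542). Robo2, which lies 844 kb away on chromosome 16, had 8 counts in the Pink1 siRNA library and 0 in the control library. With the 0 taken as 3 counts, Robo2 was 2.67-fold higher, and its counting interval began at a ratio of 1.71. Robo3 had 12 against 7 counts. The endothelial gene Robo4 had 0 in both, which allows up to 0.214 CPM by counting error alone.

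Both measured netrins were higher in the Pink1 siRNA library beyond counting error. Ntn1, the founding netrin, had 314 counts in the Pink1 siRNA library and 194 in the control library, or 22.4 against 13.8 CPM. The ratio was 1.62 (counting 1.35 to 1.95, widened 0.971 to 2.75), and its log2 ratio of 0.69 was above the middle 90% of the genes of its level (-0.66 to 0.56). Ntn3 had 58 against 20 counts, or 4.14 against 1.43 CPM, and was the 1 guidance gene called higher. Its ratio was 2.90 (counting 1.72 to 5.09, widened 0.812 to 13.8), and the widened interval includes 1. Ntn3 overlaps Tbc1d24 (335 against 290 counts), which is on the same strand, over 1715 bases. Its reads may therefore not be separable from those of Tbc1d24. Besides Ntn3, Epha1 and Nrp2, no measured guidance gene overlapped another gene of the count tables with at least 40 counts, by GENCODE M21 or RefSeq.

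The Unc5 receptors were nearly level. Unc5b had 812 counts in the Pink1 siRNA library and 873 in the control library (ratio 0.930, 0.844 to 1.02), and Unc5c had 259 against 274 counts (0.945, 0.795 to 1.12). Of the netrin receptors outside these families, Neo1, the neogenin gene, had 849 against 861 counts, and Dcc had 0 against 5. The netrins summed to 26.6 against 15.3 CPM (ratio 1.74, 1.47 to 2.07) and the Unc5 genes to 76.6 against 81.9 CPM.

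**Figure D3:**
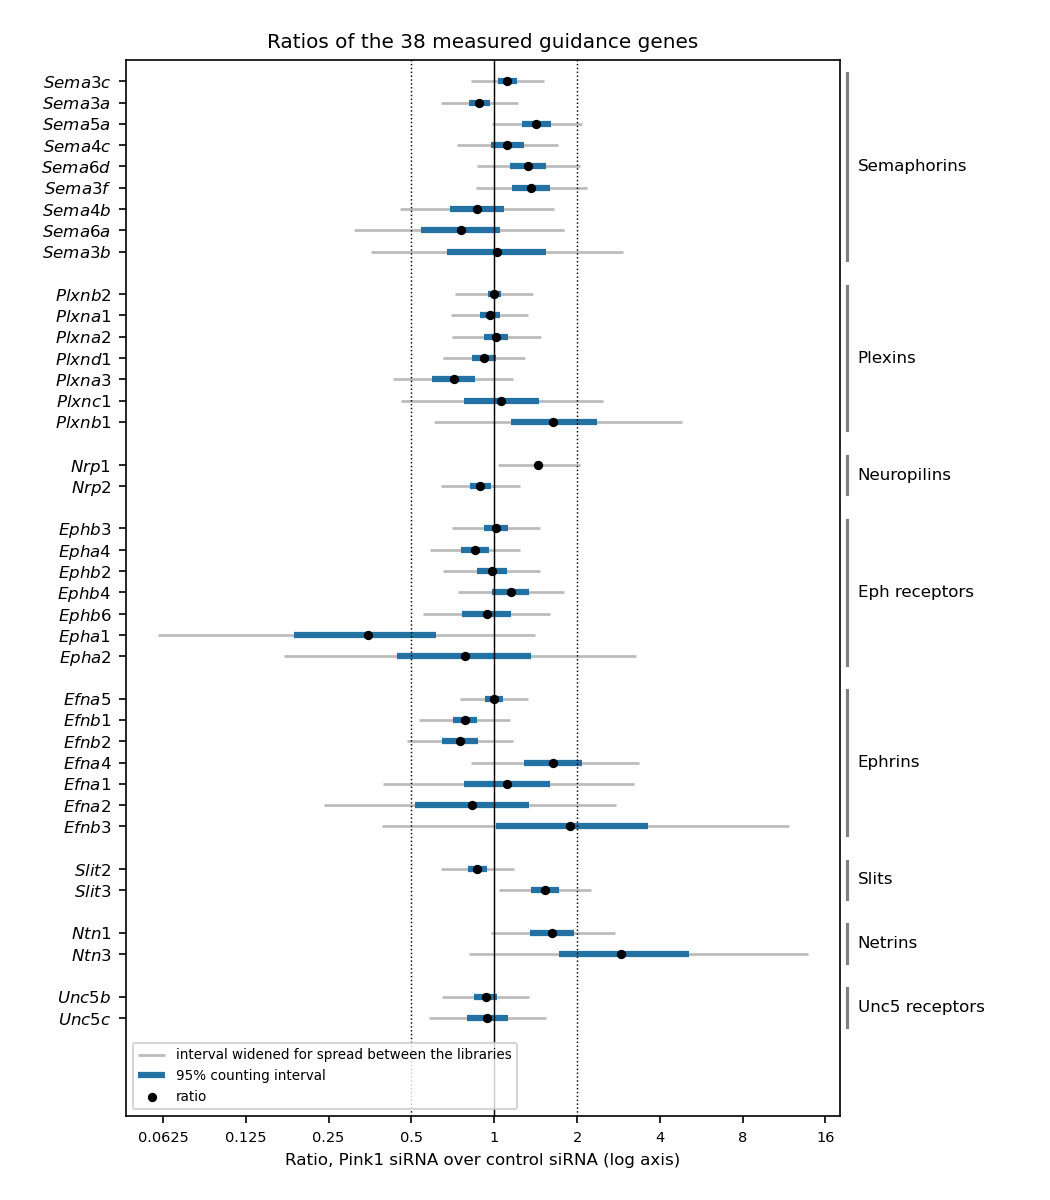
Ratio of Pink1 siRNA over control siRNA (log axis) for the 38 measured guidance genes, with the 95% counting interval (thick) and the widened interval (thin); dotted lines mark ratios of 0.5 and 2. Widened intervals lie above 1 for Nrp1 and Slit3 and include 1 for the other 36 genes.

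Counting error alone was exceeded often, in the guidance genes as elsewhere. The counting interval lay above 1 for 11 of the 38 measured genes and below 1 for 8, or 28.9% and 21.1%. Over all measured rows, 26.2% were above and 24.9% below. The widened interval lay above 1 for 2 genes, Nrp1 and Slit3, and below 1 for none, against a background of 2.09% and 2.01%. With both the ratio of 2 and the widened interval required, 0 genes passed in either direction, against 0.412% higher and 0.695% lower over all rows. Ratios were within 1.5-fold for 31 of the 38 genes, or 81.6%, against 86.9% of all measured rows. By level, 6 genes lay above the middle 90% of the genes of their own level (Efna4, Nrp1, Ntn1, Ntn3, Sema5a and Slit3), or 15.8% against 5.15% of all measured rows. None lay below it, against 5.14%. With 1 library per group, none of these shares says how the genes would vary between samples.

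**Figure D4:**
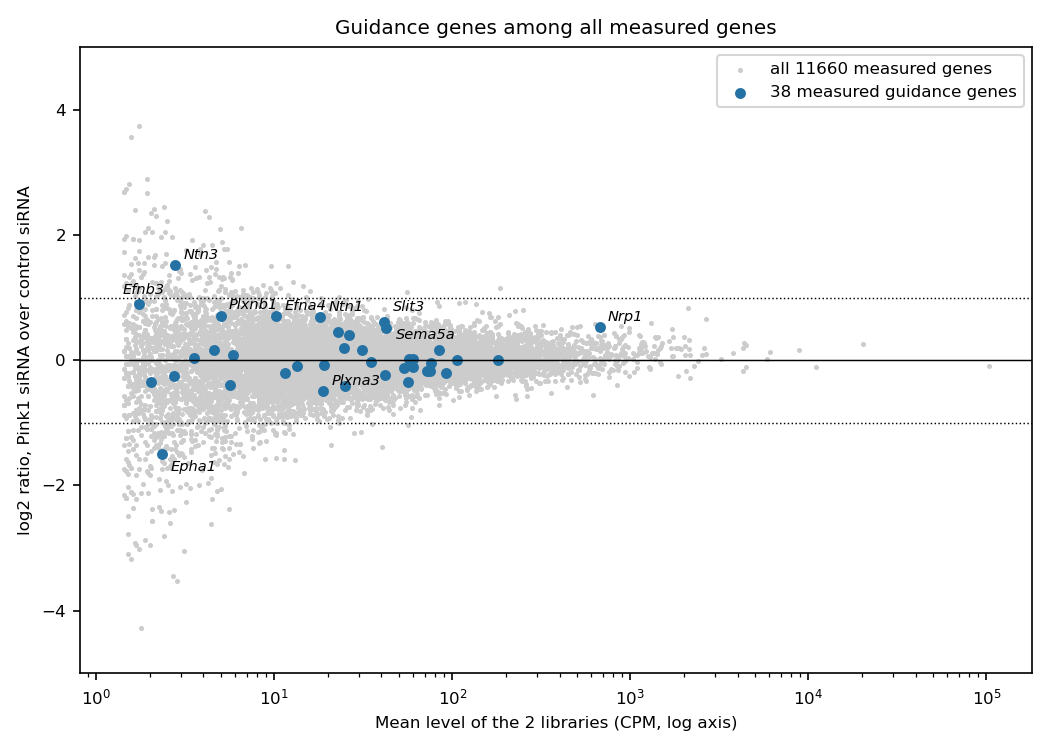
log2 ratio of Pink1 siRNA over control siRNA against the mean level in CPM (log axis) for all 11660 measured rows (grey) and the 38 measured guidance genes (blue). Ntn3 at 1.51 and Epha1 at -1.50 lie past the dotted lines at log2 ratios of 1 and -1, and Nrp1 at 0.53 lies at the upper edge of the genes of its level.

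The remaining 30 genes were under the minimum of 40 counts. Of these, 12 had 0 counts in both libraries: Sema4d, Sema4f, Epha3, Epha5, Epha6, Epha10, Ephb1, Slit1, Robo4, Ntn4, Ntn5 and Unc5a. For these, counting error alone allows a level of up to 0.214 CPM (3 counts) in each library. Reads lost through the annotation, the use of strand or multiple mapping are not covered by this bound. The other 18 had 1 to 39 counts in sum. Sema6c had 20 against 19 counts, Sema4g 12 against 14, Sema5b 12 against 11, and Sema3d and Sema4a 10 in each library. Sema7a, which is held to the membrane by a lipid anchor, had 25 counts in the Pink1 siRNA library and 9 in the control library (ratio 2.78, 1.25 to 6.76). Sema6b had 4 against 3 counts and Plxnb3 2 in each library. Plxna4, Sema3e, Sema3g, Epha7, Epha8 and Unc5d had no more than 2 counts in either library. Efna3, Robo1, Robo2 and Robo3 were given with their families above.

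Genes under the minimum still often had promoters rich in CpG pairs. A promoter was listed in RefSeq for 59 of the 68 genes, and 47 had exactly 1, which were compared over the whole 250 bases before the listed start. Of these 47 windows, 26 reached into the RefSeq extent of their own gene and 21 held part of a GENCODE exon. The median number of CpG pairs was 18 in the 27 measured genes and 13.5 in the 20 others. Over all genes of the count tables with 1 listed promoter, the medians were 17 for the 7064 measured and 3 for the 7489 others. The GC box, GGGCGG on either strand, was in 81.5% of the measured and 55.0% of the other guidance promoters. Among all genes it was in 62.1% and 23.7%. The E-box CACGTG was in 0 of the 27 measured guidance promoters and in 8.52% of all measured ones. TATAAA was in 7.41% of the measured guidance promoters against 6.03% of all measured ones, and CCAAT in 22.2% against 38.1%. These shares are descriptions with no test.

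The partner genes of these families, listed from general knowledge of the pathways, had more ratios below 1 than above it. Of 129 listed symbols 127 were in the tables and 92 were measured, with 36 ratios above 1, 56 below, and a median log2 ratio of -0.056 beside 0.0047 over all measured rows. By the rule of size none was higher and 3 were lower, or 3.26% of the 92 against 2.39% of all measured rows. These 3 came from few reads, and their widened intervals all included 1. They were Fes, a kinase downstream of Sema3a receptors (13 against 31 counts), Chn2, a Rac-inactivating chimaerin (21 against 57), and Elmo1, which activates Rac together with Dock1 (19 against 46).

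The list of semaphorin and plexin signalling genes had 24 measured members, 15 of them with a ratio below 1, and a median of -0.16. Sh3bp1, a GTPase-activating protein that binds plexin D1, had 363 counts in the Pink1 siRNA library and 624 in the control library (ratio 0.582, counting 0.510 to 0.663, widened 0.379 to 0.881). Mical3, of the plexin-linked actin oxidoreductase family, had 443 against 671 counts (0.660, counting 0.584 to 0.746, widened 0.444 to 0.974). These were the 2 partner genes whose widened interval lay below 1, while Gpc1 and Itsn2 were the 2 above it. That is 2.17% of the 92 each way, beside 2.09% above and 2.01% below over all measured rows, so both shares lie near the background. Gpc1, a heparan sulphate proteoglycan that binds Slits, had 1855 against 1274 counts (1.46, counting 1.36 to 1.57, widened 1.04 to 2.05). Itsn2, an activator of Cdc42, had 1499 against 1092 counts (1.37, counting 1.27 to 1.49, widened 1.01 to 1.87). It lies outside the naming rule and was chosen after its values were seen.

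Other guidance ligands and co-receptors had 16 measured members of 33 and a median of -0.019. Met, a receptor kinase that plexin B1 can activate, had 283 against 377 counts, and Cd72, a Sema4d receptor of lymphocytes, 422 against 324. Eph and ephrin signalling genes had 25 measured and a median of -0.086, with Kalrn at 44 against 87 counts and the chimaerin Chn1 at 40 against 25. Slit and Robo signalling genes had 13 measured and a median of -0.095. There, Arhgap39, a GTPase-activating protein gene, had 39 against 60 counts, the kinase Pak1 had 320 against 468, and Srgap3 had 457 against 362. Netrin, DCC and UNC5 signalling genes had 14 measured and a median of -0.038, with the ubiquitin ligase genes Siah1a at 377 against 518 counts and Trim9 at 90 against 65. Widened intervals included 1 for all of the genes named in this paragraph.

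**Figure D5:**
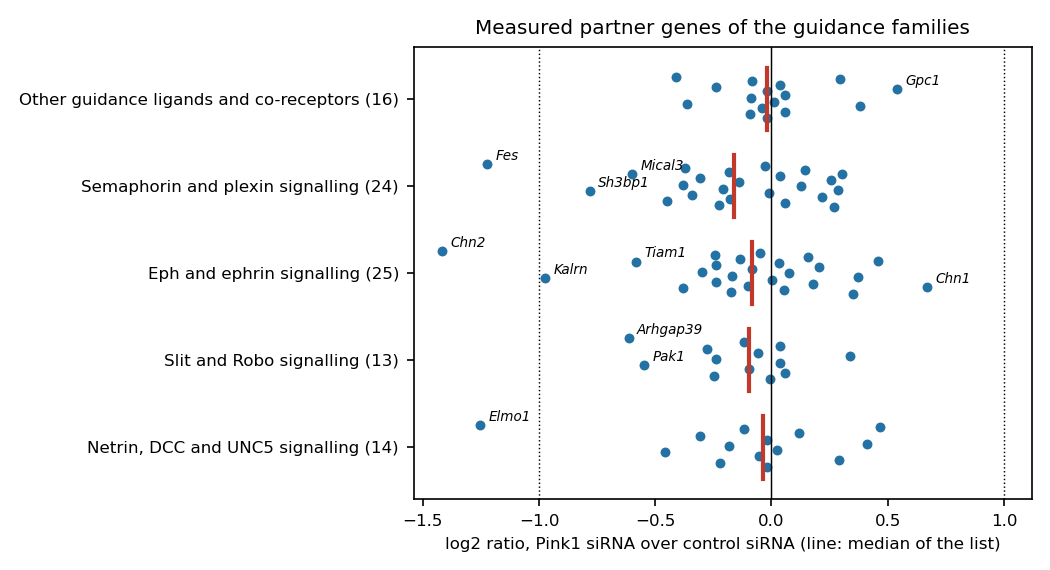
log2 ratio of Pink1 siRNA over control siRNA for the 92 measured partner genes in 5 lists; each point is 1 gene, the red line is the median of the list, and dotted lines mark log2 ratios of -1 and 1. Fes, Chn2 and Elmo1 lie below -1, and the 5 medians lie between -0.16 and -0.019.

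The libraries held 14214768 counts for Pink1 siRNA and 13803174 for control siRNA. Checked against its markers, the labelled cell type had all 8 adipocyte markers measured, summing to 2728 against 2539 CPM, with 4 ratios above 1 and 4 below. Among these, Plin1, which coats lipid droplets, had 167 against 275 counts (0.607, counting 0.498 to 0.739, widened 0.343 to 1.05). Other markers of the list were higher beyond counting error, namely Cidec (1.25, 1.18 to 1.32), Fabp4 (1.14, 1.12 to 1.17) and Cfd (1.12, 1.05 to 1.19). Their widened intervals included 1. The preadipocyte and fibroblast markers summed to 14504 against 12831 CPM, led by Dlk1 and Col1a1, with 6 of 7 measured and all 6 ratios above 1. The counting intervals of Pdgfrb (0.915 to 1.10) and Ly6a (0.980 to 1.17) included 1. The largest ratio of the 6 was that of the surface glycoprotein gene Thy1, with 1892 against 1289 counts (1.47, counting 1.37 to 1.58, widened 1.05 to 2.06), a ratio close to that of Nrp1. The widened intervals of Dlk1 (ratio 1.12, widened 1.02 to 1.23) and Col1a1 (1.15, widened 1.01 to 1.31) also lay above 1. Those of Pdgfra, Pdgfrb and Ly6a included 1. Markers of endothelial cells and neurons, which are known for using these families, summed to 0.714 against 0.928 CPM and 1.21 against 0.928 CPM, with none measured. Cdh5, Tek, Tie1, Vwf, Erg, Rbfox3, Stmn2 and Nefl had 0 counts in both libraries. Macrophage markers summed to 16.1 against 20.3 CPM with Adgre1 at 0, and glial markers to 32.6 against 31.4 CPM. The part of these marker differences in the ratios above was not tested.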

How the data were processed

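RNA of 2 samples of 3T3-L1 cells was measured, 1 per siRNA. Per the labels' protocols, the RNA was a Trizol extract and the library kit was QuantSeq. The submitters' processing notes list Bowtie2, bedtools, bcl2fastq 2.20.0.422 and the build mm10. The sources used here do not give the annotation, the use of strand or the placement of multiply mapped reads. The authors deposited raw read counts per gene symbol, 1 table per library. No molecular identifiers are mentioned, so intervals cover counting error only.

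Levels used effective library sizes by the TMM method (edgeR 4.0.16 under R 4.3.3). For log2 ratios, 0.5 was added to each scaled count. Counting intervals are 95% exact conditional binomial intervals of the ratio and exact Poisson intervals of a level (SciPy 1.17.1). Widened intervals divide both counts by a factor, which was between 5.58 and 128. This factor is the mean, over the gene's twentieth of level, of the squared deviation from equal levels divided by its binomial variance. Widened intervals do not separate technical spread from differences between the samples. The calls and counting intervals were tested on simulated Poisson counts with no extra spread between libraries. The coverage of the widened intervals was not tested. All 68 symbols matched RefSeq, from which positions and promoters came, and overlaps were taken from GENCODE M21 and RefSeq.

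All measured members were named, with the called genes and the 3 largest log2 ratios of each partner list. Outside this rule, Neo1 and Dcc were named as netrin receptors. Itsn2 and the partner genes under the minimum in the last section were named after their values were seen. Members and lists were chosen with earlier results of these data known. No p-value was computed, because each group had 1 library. Other scalings, filters, ratios and intervals were tried as alternatives, DESeq2 1.42.0 size factors among them.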

Additional observations from a re-analysis of the deposited data

How the results depend on the processing

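No paired analysis was possible because each group had 1 library, and for the same reason no library could be left out. The 2 calls, Ntn3 higher and Epha1 lower, were made under all 4 other scalings. Under these, the log2 ratio of Ntn3 lay between 1.46 and 1.51 and that of Epha1 between -1.56 and -1.50. Shifts this small could not have removed a call. Both calls also stood with no interval and with 5 added, but neither of these settings could have removed a call. Leaving out the interval only loosens the rule, and the added amount enters the log2 ratio but not the call. With no filter on counts, 3 genes were higher (Ntn3, Robo2 and Sema7a) and 3 lower (Epha1, Efna3 and Robo1), or 5.36% of 56 each way beside 3.90% and 5.51% of 15489 rows. With a minimum of 200 counts, with a ratio of 4 and under the widened interval, 0 passed in each direction. Over all rows, the widened interval left 48 higher and 81 lower, against 197 and 279, the ratio of 4 left 29 and 47, and the minimum of 200 left 28 and 40. With a ratio of 1.5, 6 guidance genes were higher and 1 was lower, or 15.8% and 2.63% beside 5.48% and 6.64% of all rows. The ratio of the summed level, 1.13, was 1.09 with total counts, 1.08 with total counts without the ribosomal precursor Rn45s, and 0.999 without Nrp1, an alternative chosen after seeing the data. Total counts shifted all genes together, with a median log2 ratio over all rows of -0.038, or -0.053 without Rn45s. The log2 ratio of Nrp1, 0.53 in the main setting, was 0.49 with total counts and 0.47 without Rn45s. Its widened interval began close to 1 in the main setting, at 1.03, and is not given for these scalings. Whether it would still leave out 1 there is therefore not shown. Under at least 1 of the 4 other scalings, 4 genes near a ratio of 1 (Plxna2, Plxnb2, Ephb3 and Sema3b) lay on the other side of it. The median of the guidance genes stayed between -0.059 and 0.0001. Genes under 5 CPM rest on few reads, which widens their intervals.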

Other observations

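Of the 35 partner genes under the minimum of 40 counts, 10 had counting intervals that left out 1, 3 of them higher in the Pink1 siRNA library and 7 lower. The matching shares over all rows under the minimum were not computed, so it is not known whether these numbers differ from the background. They were picked after their values were seen. The adaptor Grb10 had 17 counts in the Pink1 siRNA library and 1 in the control library (ratio 17.0, 2.66 to 711). Ntng1, a membrane-anchored netrin relative, had 18 against 3 counts (6.0, 1.75 to 31.8). The adhesion molecule gene L1cam had 14 against 0 counts, 4.67-fold higher with a count of 0 taken as 3. Its counting interval began at a ratio of 3.32. Mical2, an actin oxidoreductase gene, had 0 against 13 counts, 4.33-fold lower on the same basis, and its counting interval ended at a ratio of 0.328. Flrt1, of a family that binds Unc5 receptors, had 4 against 20 counts (0.200, 0.0497 to 0.597). The other 5 were lower too, namely Gpc3 at 8 against 20 counts, Vangl2 at 3 against 12, Vav2 at 0 against 8, and Crmp1 and Ptpro at 0 against 6 each.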
